A study of Mus musculus with 14 samples.

Results

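Collagens are the main structural proteins of the extracellular matrix, and each collagen molecule is a triple helix of 3 alpha chains. The collagen chain genes encode these chains. They were taken as every gene whose symbol is Col, a number, the letter a and a number, as in *Col1a1*. The rule found 44 of the 54532 genes in the tables, all 44 of them with an Ensembl ID in both tissues. By the textbook classes, 11 encode fibrillar chains, 6 the type IV chains of basement membranes, 9 the fibril-associated chains (FACIT) and 18 other chains.

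RNA was sequenced from immortalized mouse embryonic fibroblasts (iMEFs) and from whole mouse livers, each in a senescent and a control group. All iMEFs carried SV40 large T antigen, floxed *Trf2* alleles and a Cre that is switched on by 4-hydroxytamoxifen, 4HT (Trf2F/F;Rosa-CreER). Senescent iMEFs (n = 3) were collected 7 days after 4HT was first given, and control iMEFs (n = 3) received vehicle. All the mice received AAV8-Tbg-Cre, a virus whose TBG promoter limits Cre to hepatocytes, and livers were taken after 6 to 7 weeks. Senescent livers (n = 4) came from Trf2F/F;Rosa-mTmG mice and control livers (n = 4) from Rosa-mTmG mice without floxed *Trf2*, so both groups carried the mTmG reporter. The sources used here gave neither the ages nor the sexes of the mice. No library came from iMEFs given 4HT without loss of *Trf2*, and the effects of 4HT, of active Cre and of the loss cannot be told apart in the iMEFs.

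Fibrillar collagens of types I, III and V form the banded fibrils that give tissues their strength, and fibroblasts are their main source. Type IV collagen forms the sheet-like network of basement membranes, FACIT chains sit on the surface of fibrils, and type VI forms beaded filaments around cells. In liver, stellate cells and portal fibroblasts make most of the fibrillar collagen, a property for which they are known in fibrosis, whereas hepatocytes make type XVIII collagen, the parent of endostatin.

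Between 15364450 and 20177401 reads fell in genes per library. All levels below are in CPM (reads per 1000000 reads, TMM-scaled within a tissue). The targeted gene *Terf2*, which encodes TRF2, fell in the libraries labelled senescent of both tissues, with log2 fold changes of -6.75 in iMEFs and -1.69 in livers (adjusted p = 1.52e-10 and 0.00215 from edgeR). *Cdkn1a*, the p21 gene, rose in both tissues, with log2 fold changes of 2.15 in iMEFs and 2.43 in livers (adjusted p = 8.88e-09 and 0.0293). Senescent iMEF replicate 3 stood apart from replicates 1 and 2, with a chi-square of 27.1 and 32.8 per degree of freedom against 4.97 between those 2, and 2.32% of its reads were mitochondrial, against 0.853% and 0.644%. In livers, control replicate 2 had the highest summed level of 4 myofibroblast markers (*Acta2*, *Tagln*, *Cnn1* and *Myl9*), 16.9 CPM, while the other 7 livers had 3.01 to 4.32 CPM. The hepatocyte markers *Alb*, *Apoa1*, *Ttr*, *Hnf4a* and *Cyp2e1* summed to 72573 to 100802 CPM in livers and to at most 0.0505 CPM in iMEFs, where 4 of the 5 had 0 reads.

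The sequences just before the start sites of 5 members are shown because these members span the responses described below. *Col3a1*, *Col5a3* and *Col6a3* fell in senescent iMEFs, *Col10a1* rose, and *Col8a1* did not pass the test. Each run is the 250 bases upstream of the RefSeq start on the gene's strand in GRCm38, and none overlaps an annotated exon. Capitals mark 3 promoter motifs, each searched on both strands: the TATA box letters TATAAA, the motif CCAAT bound by the factor NF-Y, and the core of a box for Sp factors, GGGCGG. The windows are chr1:45311288-45311537 (plus strand) for *Col3a1*, chr9:20815068-20815317 (minus) for *Col5a3*, chr1:90843972-90844221 (minus) for *Col6a3*, chr10:34389731-34389980 (plus) for *Col10a1* and chr16:57754738-57754987 (minus) for *Col8a1*.
Col3a1: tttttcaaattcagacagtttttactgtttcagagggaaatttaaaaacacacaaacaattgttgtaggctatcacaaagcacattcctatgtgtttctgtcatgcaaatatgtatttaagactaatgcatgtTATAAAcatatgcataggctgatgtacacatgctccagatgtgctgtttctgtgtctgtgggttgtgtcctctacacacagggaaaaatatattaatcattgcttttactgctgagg
Col5a3: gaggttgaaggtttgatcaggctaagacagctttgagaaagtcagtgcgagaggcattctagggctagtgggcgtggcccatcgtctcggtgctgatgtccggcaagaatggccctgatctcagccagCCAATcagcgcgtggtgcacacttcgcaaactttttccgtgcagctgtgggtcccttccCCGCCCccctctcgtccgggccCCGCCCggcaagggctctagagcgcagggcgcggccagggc
Col6a3: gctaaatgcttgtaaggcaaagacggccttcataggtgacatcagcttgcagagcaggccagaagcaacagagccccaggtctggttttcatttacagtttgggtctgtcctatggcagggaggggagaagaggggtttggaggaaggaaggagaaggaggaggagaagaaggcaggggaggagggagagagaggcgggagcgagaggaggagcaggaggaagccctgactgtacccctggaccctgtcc
Col10a1: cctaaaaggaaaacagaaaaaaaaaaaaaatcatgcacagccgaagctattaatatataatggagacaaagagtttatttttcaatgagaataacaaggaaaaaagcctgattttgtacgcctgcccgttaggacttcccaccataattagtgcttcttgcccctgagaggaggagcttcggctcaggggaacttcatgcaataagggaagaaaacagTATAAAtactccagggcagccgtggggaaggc
Col8a1: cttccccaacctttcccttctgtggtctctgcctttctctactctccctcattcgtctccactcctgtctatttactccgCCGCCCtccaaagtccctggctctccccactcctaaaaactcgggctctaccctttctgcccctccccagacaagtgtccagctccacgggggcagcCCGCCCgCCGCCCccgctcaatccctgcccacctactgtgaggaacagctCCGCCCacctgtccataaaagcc

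The windows of *Col3a1* and *Col10a1* each held 1 TATAAA and were low in G and C (35.2% and 41.6%). That of *Col5a3* held 1 CCAAT and 2 GGGCGG, that of *Col8a1* held 4 GGGCGG, and that of *Col6a3* held none of the 3 motifs. RefSeq windows were found for 35 of the 44 members. Over the 38 windows of these members, TATAAA was present in 13.2%, CCAAT in 34.2% and GGGCGG in 57.9%, and over all 32851 windows of that length in 12.4%, 33.8% and 32.7%.

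Most collagen chain genes that were expressed in iMEFs fell in senescence. Of the 44 members, 29 passed the filter on low counts. Of these 29, 20 were lower and 3 higher in senescent iMEFs at an adjusted p under 0.05 from edgeR's quasi-likelihood test, and 6 did not pass. Over all 13561 genes tested, 39.8% were called, 21.2% lower and 18.6% higher. At an unadjusted p under 0.05 the count was 24 of 29, and the share of all tested genes 48.1%. The median log2 fold change of the 29 was -1.30, with a range of -4.03 to 1.83, and that of all tested genes was 0.00. The change exceeded 1 on the log2 scale for 21 of the 23 called members, 3 of which were higher, and 8.10% of all tested genes were called past that size. The senescent and control libraries did not overlap for 23 of the 29 members and for 50.6% of all tested genes. Collagen reads made up 1.97% to 2.15% of the reads in genes in control iMEFs. In senescent replicates 1, 2 and 3 they made up 0.599%, 0.564% and 0.806%, all below the controls. In bulk RNA, fewer cells of a type and less RNA per cell cannot be told apart. CPM and shares are relative to all reads of a library, so a change in total RNA per cell is not seen.

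**Figure D1:**
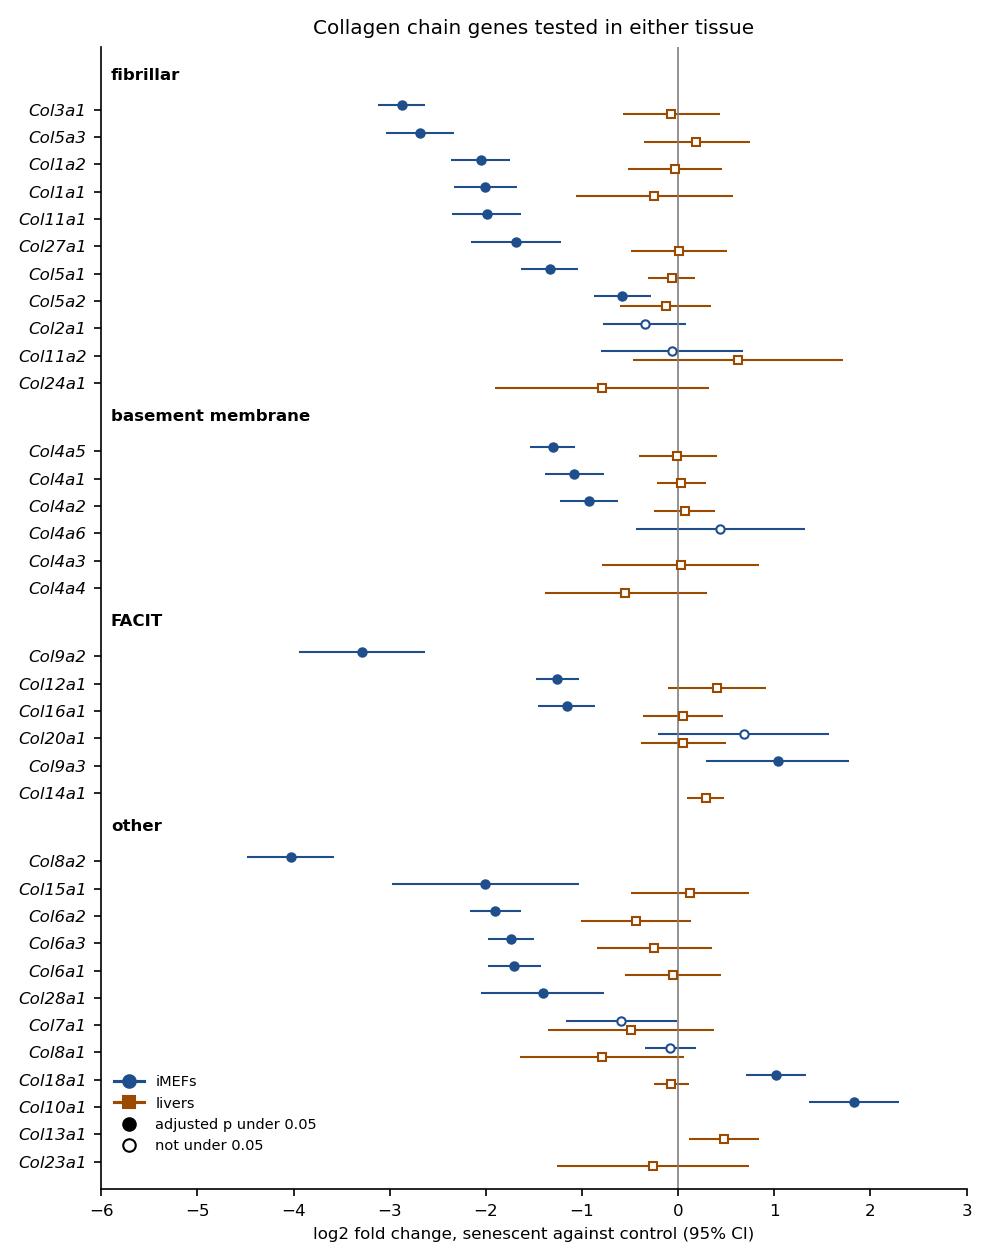
Log2 fold change (x axis) of senescent against control for each collagen chain gene tested in either tissue (rows, by class). The 95% confidence intervals were computed from edgeR's log2 fold change and F statistic. Circles are iMEFs (n = 3 per group) and squares are livers (n = 4 per group). Filled symbols passed an adjusted p of 0.05: in iMEFs 20 filled circles lie to the left of 0 and 3 to the right, and no liver square is filled.

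All 20 members that fell were highest in senescent replicate 3 among the senescent libraries. Their median level, as a share of the control mean, was 26.7% in replicate 1, 25.0% in replicate 2 and 40.4% in replicate 3. *Col10a1* and *Col18a1*, which rose, and *Col7a1* and *Col8a1*, which did not pass, were also highest in replicate 3 among the senescent libraries. Without replicate 3, 23 of 32 tested members were lower and 2 higher. The higher mitochondrial share of that library goes with these values, and its part in them was not tested.

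The fibrillar chains held the bulk of the collagen reads in iMEFs, 80.0% ± 0.124 in control and 73.8% ± 0.267 in senescent libraries (SD, n = 3 each). Of 11 fibrillar members 10 were tested, 8 were lower, 0 were higher, and the median log2 fold change was -1.84. *Col1a1* encodes the chain present in 2 copies in type I collagen, and lies on chromosome 11 from 94936224 to 94953042 (GRCm38, plus strand). It was at 7262, 6514 and 6518 CPM in control replicates 1, 2 and 3 and at 1578, 1379 and 2098 CPM in the senescent ones. The groups did not overlap, and the log2 fold change was -2.01 (95% CI -2.33 to -1.68, adjusted p = 7.94e-07 from edgeR).

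*Col1a2*, the other type I chain, on chromosome 6, was at 4831, 4698 and 4554 CPM in control iMEFs and at 992, 992 and 1407 CPM in senescent iMEFs. It fell nearly in step with *Col1a1*, by 2.05 on the log2 scale (adjusted p = 3.67e-07 from edgeR). *Col3a1*, the chain of type III collagen of distensible tissues such as skin and vessels, fell further. Its levels were 2055, 1897 and 1896 CPM in the controls against 239.9, 252 and 305 CPM in senescence, a log2 fold change of -2.87 (95% CI -3.12 to -2.63, adjusted p = 5.28e-09 from edgeR). Even the highest senescent library lay far below the lowest control.

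The 3 chains of type V collagen, which starts fibrils and sets their width, differed widely in the size of their fall. *Col5a3* dropped from 192, 174 and 161 CPM to 24.2, 21.0 and 36.7 CPM, by 2.68 on the log2 scale (adjusted p = 1.49e-07 from edgeR). *Col5a1* was at 1029, 937 and 882 CPM in vehicle-treated iMEFs and at 352, 310.3 and 469 CPM after 4HT, a log2 fold change of -1.33 (adjusted p = 1.08e-05). *Col5a2* was the least changed of the abundant fibrillar chains. It was at 1912, 1819 and 1847 CPM in control iMEFs and at 1068, 1082 and 1583 CPM in senescent iMEFs, and fell by 0.58 on the log2 scale (95% CI -0.88 to -0.28, adjusted p = 0.00582). *Col5a2* held 8.77% to 9.20% of the collagen reads in control libraries against 18.3% to 19.6% in senescent ones, and *Col3a1* held 9.37% to 9.45% against 3.79% to 4.55%.

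*Col3a1* (45311538 to 45349706, plus strand) and *Col5a2* (45374321 to 45503282, minus strand) are neighbours on chromosome 1 of GRCm38, 24.6 kb apart and tail to tail. Their levels per kilobase of exon in control iMEFs were 199 ± 9.34 and 194 ± 4.97 CPM (SD, n = 3 each), which overlap within their spread. In senescent iMEFs they were 27.1 ± 3.54 and 129.7 ± 30.6 CPM per kilobase. By level per kilobase the order in control iMEFs was *Col1a1* (1031 ± 65.7), *Col1a2* (378 ± 11.2), *Col6a1* (279.7 ± 12.9), *Col3a1* and *Col5a2*. The lengths join the exons of all annotated transcripts, and the order depends on them. They were 12426 bases for *Col1a2* and 9816 for *Col3a1*, against 6563 for *Col1a1* and 4380 for *Col6a1*. In senescent iMEFs *Col5a2* was second to *Col1a1* (257 ± 56.5), and *Col3a1* was seventh.

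Of the 4 tested chains known from cartilage fibrils, 2 fell. *Col11a1*, which nucleates type II fibrils in cartilage, fell from 156, 139 and 148 CPM to 30.4, 29.9 and 51.0 CPM, a log2 fold change of -1.99 (adjusted p = 2.01e-06 from edgeR). *Col2a1*, the main cartilage collagen, had control and senescent means of 13.1 ± 2.31 and 10.2 ± 2.86 CPM (SD, n = 3 each) and a log2 fold change of -0.35 (adjusted p = 0.177), and the groups overlapped. *Col11a2* was near 1 CPM in both groups, with a log2 fold change of -0.06 (95% CI -0.80 to 0.67). *Col27a1*, a chain of thin cartilage fibrils, fell from 21.6, 18.0 and 17.5 CPM to 5.15, 3.90 and 8.43 CPM, by 1.69 on the log2 scale (adjusted p = 6.00e-05). The cartilage markers *Acan*, *Matn1*, *Matn3*, *Comp* and *Hapln1* together were at 5.1 to 5.67 CPM in control and 1.52 to 4.59 CPM in senescent iMEFs, with *Hapln1* at 0 reads in both. Of these markers 2 were tested and 1, *Acan*, was lower, and their part in the fall of the cartilage chains was not tested. *Col24a1*, the last fibrillar chain, had 10 reads over the control and 0 over the senescent iMEFs and was not tested.

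**Figure D2:**
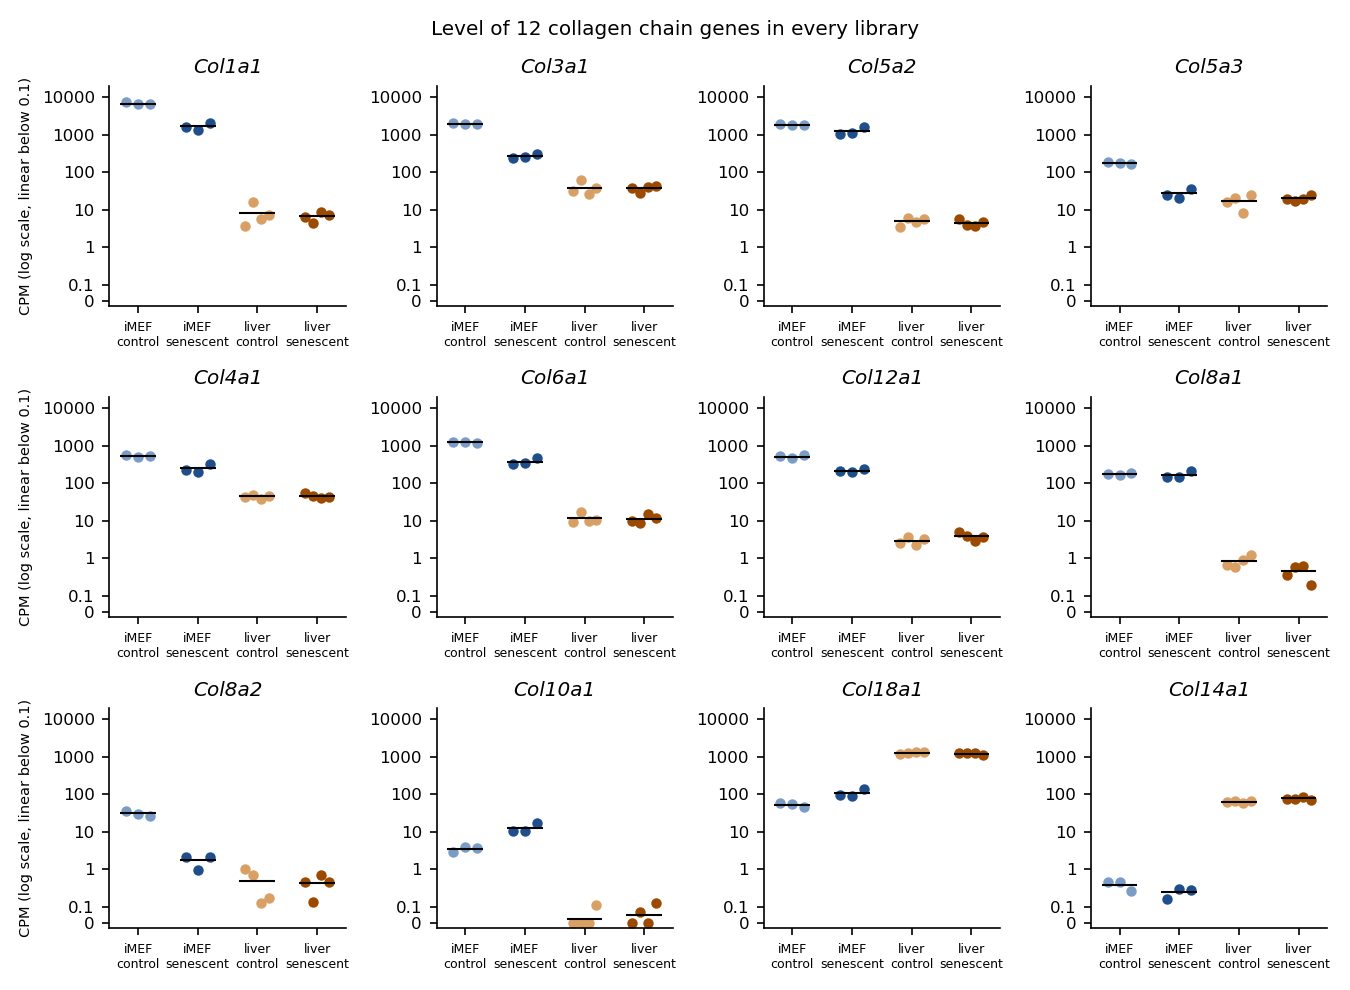
CPM (y axis, log scale above 0.1 and linear below) of 12 collagen chain genes in every library (points), with the group mean as a line (n = 3 per iMEF group and n = 4 per liver group). *Col3a1* and *Col5a3* fall most among the fibrillar chains shown in iMEFs, *Col8a1* overlaps between the iMEF groups, *Col10a1* and *Col18a1* are higher in senescent iMEFs, and the liver groups overlap except for *Col14a1*. The 2 tissues were scaled apart.

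Of the 6 type IV chains, 4 were tested in iMEFs, and 3 were lower (median log2 fold change -1.01). *Col4a1* and *Col4a2*, which form the widespread heterotrimer of basement membranes, lie head to head on chromosome 8, with starts 21 bases apart in GENCODE. *Col4a1* was at 561, 517 and 523 CPM in the controls against 228, 202 and 326 CPM after 4HT, a log2 fold change of -1.08 (adjusted p = 9.16e-05 from edgeR). *Col4a2* went from 297, 275 and 264 CPM to 124, 125 and 189.8 CPM, a log2 fold change of -0.93 (adjusted p = 2.36e-04). The windows upstream of both starts lie within annotated exons of the partner and are not shown. Reads from the 22 shared exon bases cannot be assigned without strand. *Col4a5*, a chain of kidney and skin basement membranes, fell from 88.8, 86.4 and 90.2 CPM to 33.9, 31.3 and 42.3 CPM, by 1.30 on the log2 scale (adjusted p = 1.92e-06). Its X-linked neighbour *Col4a6*, whose start lies 1309 bases away on the other strand, was at or under 2.35 CPM in every iMEF library and did not pass (log2 fold change 0.44, adjusted p = 0.416). *Col4a3* and *Col4a4*, the pair of the glomerulus, had 15 to 28 reads over each iMEF group and were not tested.

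Of the 18 members in the other classes 10 were tested, 6 were lower and 2 higher, and the median log2 fold change was -1.56. All 3 tested type VI chains fell. *Col6a1* was at 1276, 1234 and 1165 CPM in control iMEFs and at 323, 342 and 460.3 CPM in senescent iMEFs (log2 fold change -1.71, adjusted p = 7.91e-07 from edgeR). *Col6a2*, next to it on chromosome 10, was at 713, 706 and 647 CPM and at 171, 159 and 225 CPM (log2 fold change -1.90, adjusted p = 2.21e-07). *Col6a3*, the large partner of both, was at 386, 312 and 364 CPM and at 99.4, 95.2 and 123 CPM (log2 fold change -1.74, adjusted p = 2.27e-07). For each of the 3 chains the highest senescent library lay below the lowest control. The alternative partner chains *Col6a4*, *Col6a5* and *Col6a6*, a cluster on chromosome 9, had at most 45 reads over any group of libraries and were not tested in either tissue.

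Among the FACIT chains 5 of 9 were tested in iMEFs, 3 were lower, 1 higher and 1 did not pass, with a median log2 fold change of -1.16. *Col12a1*, a stretch-bearing fibril coat of soft tissue, fell from 538, 461 and 552 CPM to 207, 198 and 243 CPM, by 1.26 on the log2 scale (adjusted p = 1.64e-06 from edgeR). *Col16a1* went from 163, 149 and 129.9 CPM to 61.0, 53.9 and 82.7 CPM, a log2 fold change of -1.16 (adjusted p = 3.75e-05). Of the type IX chains of cartilage, *Col9a2* fell by 3.29 on the log2 scale (adjusted p = 4.60e-06), with 3.94 ± 0.416 CPM from 224 reads in control libraries and 0.308 ± 0.149 CPM from 16 reads in senescent ones (SD, n = 3 each). *Col9a3* was higher, at 0.334 ± 0.0643 and 0.798 ± 0.124 CPM from 19 and 42 reads (log2 fold change 1.04, adjusted p = 0.0301). This call was lost with DESeq2 (adjusted p = 0.103), without the filter on low counts (0.0983), and in 5 of the 6 fits that left out 1 library (0.0727 to 0.0962). *Col9a2* and *Col9a3* were below the cutoff of the low-count filter, 0.548 CPM, in every library of the group where they were low. They were tested only through the other group, so a difference was built into their selection and their calls support nothing beyond these values. Without them 19 members were lower and 2 higher of 27. These 27 still hold *Col15a1*, which reached the cutoff in only 1 senescent library. *Col9a3* shares 234 exon bases with *Tcfl5* on the other strand, which was at 1.20 ± 0.225 and 0.801 ± 0.151 CPM, and whether the counting used strand was not stated in the sources used here. *Col20a1* had a log2 fold change of 0.68 and did not pass (adjusted p = 0.208).

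The short-chain network collagens of types VIII and X did not move as one. *Col8a2*, known from the corneal endothelium, had the largest fall of all members, from 35.1, 30.6 and 26.7 CPM to 2.15, 0.975 and 2.18 CPM (log2 fold change -4.03, 95% CI -4.48 to -3.58, adjusted p = 3.55e-08 from edgeR). *Col8a1*, its partner chain, was at 175, 164 and 190.4 CPM in control and at 149, 145 and 207 CPM in senescent iMEFs. These groups overlapped, with a log2 fold change of -0.08 (95% CI -0.35 to 0.19, adjusted p = 0.632). Without senescent replicate 3 the value was -0.25 (adjusted p = 0.0142). *Col10a1*, the collagen of hypertrophic cartilage, rose from 2.82, 3.99 and 3.72 CPM to 10.6, 10.4 and 17.3 CPM, a log2 fold change of 1.83 (95% CI 1.36 to 2.30, adjusted p = 3.75e-05). It lies within *Nt5dc1* on the other strand and shares 18 exon bases with it. *Nt5dc1* was at 19.0 ± 1.12 and 16.7 ± 1.03 CPM (SD, n = 3 each) and did not pass (adjusted p = 0.189).

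Of the 2 multiplexins, large proteoglycan-like chains of the basement membrane zone, only *Col18a1* was well above the low-count cutoff in every iMEF library. *Col18a1*, the endostatin precursor, rose from 57.1, 53.6 and 46.2 CPM to 95.6, 88.1 and 135 CPM (log2 fold change 1.02, 95% CI 0.71 to 1.33, adjusted p = 1.42e-04 from edgeR). *Col15a1* was low, at 2.76, 2.02 and 1.73 CPM in the controls against 0.268, 0.122 and 0.975 CPM in senescence, and fell by 2.01 on the log2 scale (adjusted p = 0.00369), on 123 and 24 reads. It reached the cutoff of the low-count filter in 3 control libraries and 1 senescent library. It too was tested through the group where it was high, so its call supports nothing beyond these values. *Col28a1* fell by 1.41 on the log2 scale (adjusted p = 0.00241), with 2.26 ± 0.503 CPM in control libraries against 0.779 ± 0.184 CPM (SD, n = 3 each). *Col7a1*, the anchoring fibril of skin, had a log2 fold change of -0.59 (adjusted p = 0.0987), with senescent levels of 10.4, 8.28 and 21.7 CPM against 24.0, 18.3 and 18.6 CPM in control iMEFs. Without senescent replicate 3 its value was -1.09 (adjusted p = 1.46e-05).

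Ratios between chains of the same or a partner molecule, and between the 2 multiplexins, were compared within libraries, as log2 ratios of CPM. With 3 libraries against 3 an exact permutation test cannot go below p = 0.1, so no iMEF ratio could pass 0.05. The *Col3a1* to *Col1a1* ratio was -1.82, -1.78 and -1.78 in control and -2.72, -2.45 and -2.78 in senescent iMEFs. This is a shift of -0.85 that left no overlap (exact two-sided permutation p = 0.1, adjusted p = 0.14 over 7 pairs). The *Col5a2* to *Col5a1* ratio went from 0.97 ± 0.09 to 1.72 ± 0.11, a shift of 0.75 with no overlap (same p). The *Col15a1* to *Col18a1* ratio shifted by -2.56, also without overlap, with *Col15a1* at 24 reads over the senescent iMEFs. The senescent mean of *Col15a1*, 0.455 CPM, was below the offset of 0.5 CPM added to each level, so this shift depends on the offset. *Col15a1* also passed the low-count filter through the control group, so this ratio supports nothing beyond these values. *Col1a2* to *Col1a1* shifted by -0.05 and *Col6a3* to *Col6a1* by -0.02, and both overlapped (exact p = 0.6 and 0.9). *Col4a2* to *Col4a1* rose by 0.16 and *Col6a2* to *Col6a1* fell by 0.19, each without overlap (exact p = 0.1).

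**Figure D3:**
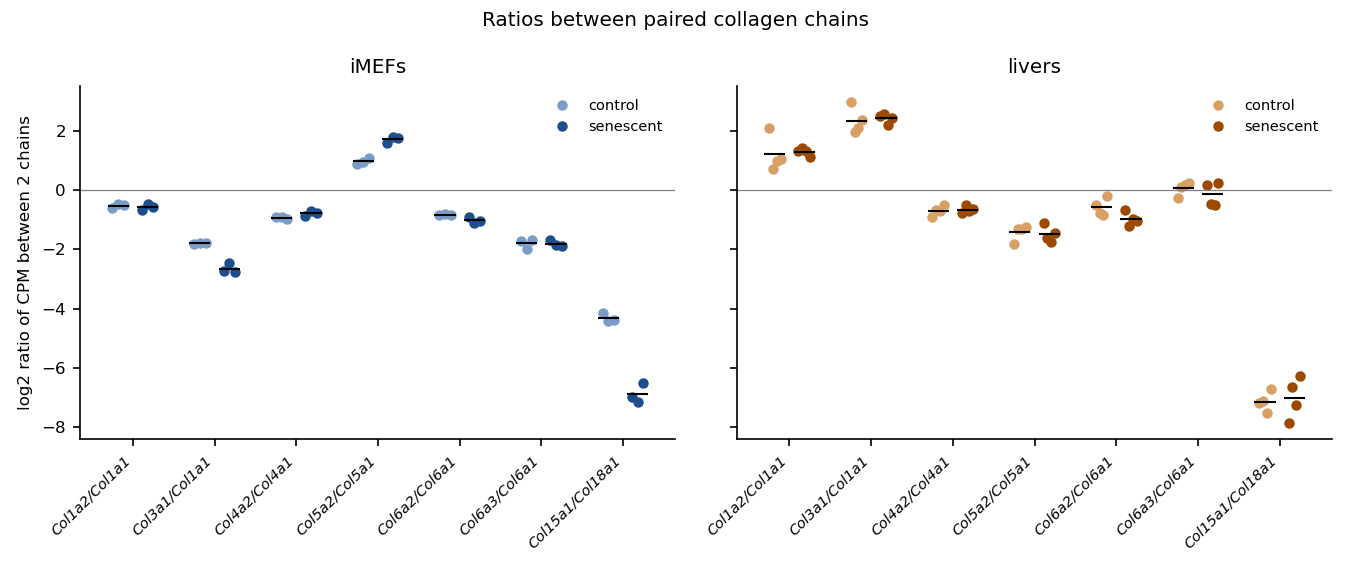
Log2 ratio of CPM (y axis) between 2 collagen chains (x axis) in every library (points, with the group mean as a line) for iMEFs (left, n = 3 per group) and livers (right, n = 4 per group). In iMEFs the *Col3a1* to *Col1a1* and *Col15a1* to *Col18a1* ratios are lower and the *Col5a2* to *Col5a1* ratio is higher in all senescent libraries, and in livers the groups overlap for all 7 pairs. In iMEFs *Col15a1* passed the low-count filter through the control group, and its senescent mean, 0.455 CPM, is below the offset of 0.5 CPM.

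Genes that fold, process, crosslink, bind and degrade collagen were described from 7 lists with 107 genes, 90 of them tested in iMEFs. Of the 90, 51 were lower and 11 higher at an adjusted p under 0.05 from edgeR, with a median log2 fold change of -0.38, where 21.2% of all tested genes were lower and 18.6% higher. Among 19 tested genes of helix assembly, 12 were lower and 1 higher. *P4ha3*, a prolyl hydroxylase subunit, fell by 1.83, *Serpinh1*, the collagen chaperone HSP47, by 1.16 and *Fkbp14*, a prolyl isomerase, by 1.09 on the log2 scale, while *Plod2*, a lysyl hydroxylase, had a log2 fold change of 0.44. Of 6 tested genes of propeptide processing, 5 were lower and 1 higher. *Adamts2*, the N-propeptidase of fibrillar collagen, fell by 2.14, *Pcolce* fell by 0.59 and *Pcolce2* rose with a log2 fold change of 0.72. Of the 5 lysyl oxidases, the crosslinking enzymes, 3 were lower and 1 higher. *Loxl2*, *Loxl1* and *Lox* fell by 2.18, 1.15 and 1.05, and *Loxl3* had a log2 fold change of 0.42.

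Among 9 tested collagen receptors, 5 were lower and 1 higher. *Itga11*, the integrin subunit of fibroblasts that binds fibrillar collagen, fell by 2.63, *Mrc2*, an endocytic receptor for collagen, fell by 1.0, and *Itga2* rose with a log2 fold change of 2.26, from 0.529 to 2.94 CPM. The control mean of *Itga2* was below the low-count cutoff, 0.548 CPM. It was tested through the senescent group, so its call supports nothing beyond these values. Of 10 tested genes of collagen breakdown, 6 were lower and 2 higher. *Mmp13*, collagenase 3, rose with a log2 fold change of 2.29, from 1.18 to 6.19 CPM, and *Mmp15* with 0.76, whereas *Mmp2*, a gelatinase, fell by 0.80 and *Timp3*, an inhibitor, by 0.43. Of 16 tested basement membrane partners, 8 were lower and 2 higher. *Pxdn*, the peroxidasin that crosslinks type IV collagen, fell by 1.23, *Nid2* by 1.54 and *Lama4* by 1.60, while the laminin chain gene *Lamb1* and *Npnt* had log2 fold changes of 0.50 and 0.48. Of 25 tested regulators, 12 were lower and 3 higher. *Scx*, the tendon factor scleraxis, fell by 1.76, *Creb3l1* by 1.89 and *Tgfb3* by 1.54, and *Ccn2* (listed in the tables as *Ctgf*) and *Smad7* rose with log2 fold changes of 1.37 and 0.50. Adjusted p from edgeR was at most 0.036 for each of the genes named in these lists.

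The markers of portal fibroblasts (*Thy1*, *Eln*, *Entpd2*, *Mfap4* and *Gli1*) summed to between 155 and 182 CPM in the controls against 41.9 to 62.8 CPM in senescence, and 3 of the 4 tested were lower. *Thy1* made up most of these sums, at means of 142 and 49.9 CPM. *Eln*, 1 of the 3, was at means of 1.34 and 0.191 CPM, on 75 control and 10 senescent reads. Its senescent mean was below the low-count cutoff, 0.548 CPM. It was tested through the control group, so its call supports nothing beyond these values. The 4 myofibroblast markers summed to 828 to 849 CPM against 405 to 497 CPM, and 3 of 4 were lower. These counts stand beside the 39.8% of all tested genes that were called, a share made up of 21.2% lower and 18.6% higher. The 8 stellate cell markers summed to 369 to 423 CPM against 213 to 325 CPM, with *Lrat* at 0 reads in both groups. Of the 4 tested, 2 were lower and 1, *Rgs5*, was higher. *Rgs5* was at means of 0.196 and 1.34 CPM, on 11 control and 70 senescent reads. Its control mean was below the low-count cutoff. It was tested through the senescent group, so its call supports nothing beyond these values. *Pdgfrb*, a receptor of stellate cells and other mesenchymal cells, was at 258 ± 22.3 and 97.0 ± 24.9 CPM in control and senescent libraries (SD, n = 3 each) and fell by 1.41 on the log2 scale (adjusted p = 1.05e-05 from edgeR), *Hgf* fell too, *Rgs5* was higher and *Ecm1* did not pass. The 6 general fibroblast markers, *Vim* and *Fn1* among them, summed to 7630 to 8821 CPM against 6783 to 7666 CPM, with 3 lower and 1 higher. Their part in the collagen result was not tested.

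In whole livers no collagen chain gene passed the test. Cre was limited to hepatocytes there, while the libraries hold RNA of all liver cells. Of 27 members that passed the filter, 0 were called by edgeR at an adjusted p of 0.05, and 0 by DESeq2, where 0.343% of all 14270 tested genes were called by edgeR, 0.308% higher and 0.035% lower. At an unadjusted p under 0.05 there were 2 members by each tool, which is to be read against 7.54% of all tested genes by edgeR. The median log2 fold change of the 27 was -0.03, with a range of -0.79 to 0.62, and the 95% interval lay within 1 log2 unit of 0 for 19 of them. Collagen reads were 0.147% to 0.17% of the reads in control and 0.148% to 0.161% in senescent livers.

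**Figure D4:**
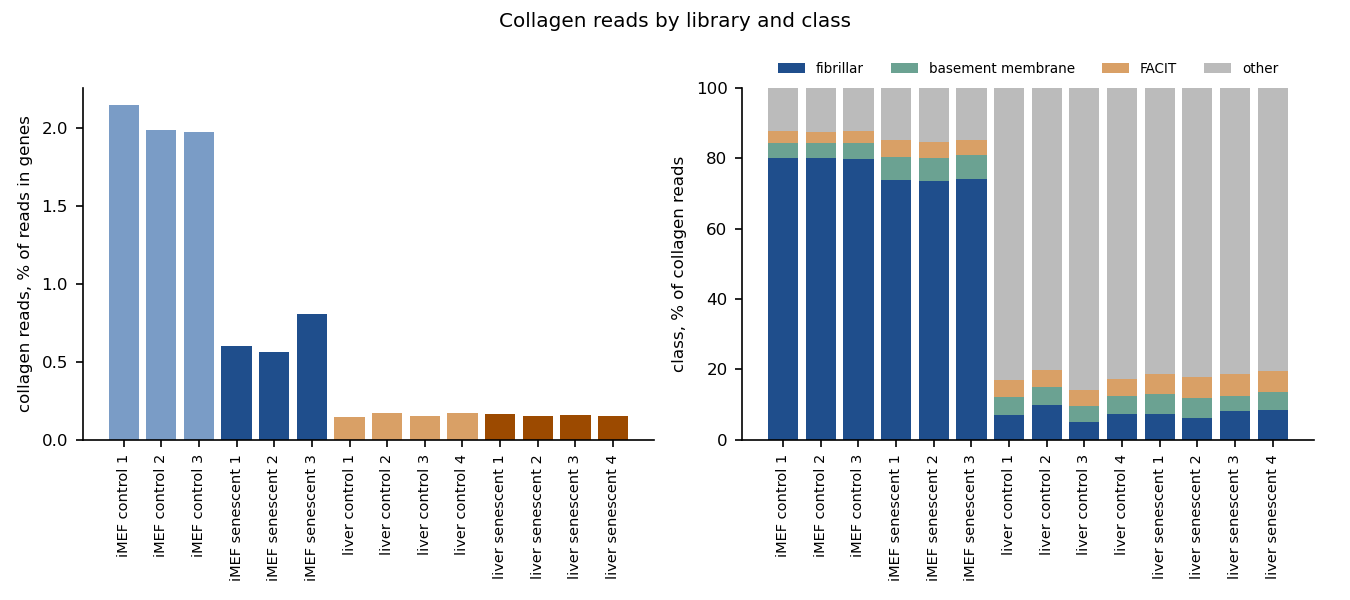
Collagen reads as a percentage of reads in genes (left, bars from 0) and the share of each class among collagen reads (right, stacked to 100%) in each of the 14 libraries (x axis). The collagen share is 1.97% to 2.15% in control iMEFs, 0.564% to 0.806% in senescent iMEFs and 0.147% to 0.17% in livers, where the class other, which holds *Col18a1*, makes up most of the reads.

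*Col18a1* alone took 76.6% to 83.3% of the collagen reads in control livers and 76.6% to 79.7% in senescent livers. It was at 1187, 1298, 1306 and 1316 CPM in control livers and at 1273, 1224, 1275 and 1103 CPM in senescent livers, and the groups overlapped (log2 fold change -0.07, 95% CI -0.25 to 0.11, adjusted p = 0.895 from edgeR). The levels of the tissues were normalized apart, and within livers *Col18a1* stood at 182 ± 8.62 CPM per kilobase of exon in controls, ahead of *Col14a1*, a FACIT chain, at 9.01 ± 0.639 and *Col4a1* at 5.93 ± 0.636 (SD, n = 4 each).

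*Col14a1* was the member with the smallest p in livers, and had 22 reads over control and 13 over senescent iMEFs. It was at 61.5, 67.6, 57.7 and 65.9 CPM in control and 73.0, 76.4, 86.8 and 71.9 CPM in senescent livers. All senescent livers were above all controls, and the log2 fold change was 0.29 (95% CI 0.09 to 0.48, unadjusted p = 0.0088 and adjusted p = 0.461 from edgeR). *Col13a1*, a membrane-spanning chain, was at 4.57, 3.87, 4.99 and 4.72 CPM in control and at 6.24, 7.27, 5.54 and 6.38 CPM in senescent livers (log2 fold change 0.48, unadjusted p = 0.0157, adjusted p = 0.535 from edgeR). Its groups did not overlap either, and it had 0 reads in all 6 iMEF libraries. These were the 2 of the 27 members without overlap between the liver groups, where 4.51% of all tested genes had none. The stellate cell markers (*Lrat*, *Reln*, *Des*, *Pdgfrb*, *Rgs5*, *Ecm1*, *Hgf* and *Ngfr*, all with reads) summed to 323 to 412 CPM in the controls against 401 to 453 CPM in senescent livers. *Ecm1* was the highest, at means of 180 and 221 CPM. Of these 8 markers 0 were called by edgeR, where 0.343% of all tested genes were. In the same order, endothelial cell markers summed to 258 to 307 and 295 to 362 CPM. Macrophage markers summed to 154 to 355 and 278 to 357 CPM. Hepatocyte markers summed to 72573.2 to 83986.7 and 80518.5 to 100802 CPM. Portal fibroblast markers summed to 8.82 to 14.1 and 8.53 to 10.2 CPM. The part of any list in these values was not tested.

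The fibrillar chains were low in livers and varied between mice. *Col3a1* was at 31.3, 61.5, 25.5 and 38.2 CPM in control and 37.9, 28.4, 41.0 and 42.2 CPM in senescent livers. *Col1a1* was at 3.57, 15.6, 5.60 and 7.10 CPM and at 6.36, 4.43, 8.47 and 7.45 CPM. In both genes control replicate 2, the liver with the highest myofibroblast markers, was the highest library. The log2 fold change was -0.07 (95% CI -0.57 to 0.44) for *Col3a1* and -0.25 (95% CI -1.06 to 0.57) for *Col1a1*. Without control replicate 2 these values were 0.24 and 0.30 (adjusted p = 0.921 and 0.952 from edgeR), and the count of called members stayed at 0. *Col1a2* had a log2 fold change of -0.03, *Col5a1* of -0.06, *Col5a2* of -0.13, *Col5a3* of 0.19, *Col27a1* of 0.01, *Col11a2* of 0.62 and *Col24a1* of -0.79. *Col11a1* had 0 reads in all 8 livers.

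No basement membrane or filament chain passed the test in livers. *Col4a1* was at 42.3, 49.4, 38.7 and 46.8 CPM in control and 53.6, 46.2, 39.4 and 42.1 CPM in senescent livers (log2 fold change 0.03, 95% CI -0.22 to 0.29). *Col4a2* had a log2 fold change of 0.07, *Col4a3* of 0.03, *Col4a4* of -0.55 and *Col4a5* of -0.01. *Col6a1*, *Col6a2* and *Col6a3* had log2 fold changes of -0.05, -0.44 and -0.25 (95% CI of *Col6a2* -1.01 to 0.13). The remaining tested members, *Col7a1*, *Col8a1*, *Col12a1*, *Col15a1*, *Col16a1*, *Col20a1* and *Col23a1*, had log2 fold changes of -0.49, -0.79, 0.40, 0.12, 0.05, 0.05 and -0.26. None of these 15 values passed an adjusted p of 0.05. No chain ratio passed between the liver groups (exact permutation p = 0.0857 to 0.83 over 7 pairs, where the smallest possible p is 0.0286), with *Col6a2* to *Col6a1* the furthest apart, at -0.59 ± 0.29 and -0.98 ± 0.22 (SD, n = 4 each). The 86 tested genes of the 7 lists gave 0 calls by edgeR or DESeq2 in livers, with 8 at an unadjusted p under 0.05 by edgeR and a median log2 fold change of 0.06. Over all tested genes 0.343% were called by edgeR and 7.54% had an unadjusted p under 0.05.

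The change in the livers was tested against the change in iMEFs in 1 fit over the 14 libraries, as the log2 fold change in livers minus that in iMEFs. Tissue goes with the way *Trf2* was deleted, with the time since deletion and with the cells that lost it, and these cannot be told apart. In livers Cre was limited to hepatocytes, whereas most fibrillar collagen of liver is made by other cells. In iMEFs the deleted cells were the fibroblasts themselves. Of the 21 members tested in both tissues, 15 had a difference above 0 and 1 below 0 at an adjusted p under 0.05 from edgeR, where 17.1% of the 11693 genes tested were called, 9.69% above and 7.41% below. The median difference of the 21 was 1.29. The largest differences were those of *Col5a3* (2.87, adjusted p = 3.08e-05), *Col3a1* (2.81, adjusted p = 6.75e-06), *Col15a1* (2.04, adjusted p = 0.0159) and *Col1a2* (2.02, adjusted p = 1.57e-04). *Col15a1* did not pass without senescent iMEF replicate 1 or 2 (adjusted p = 0.0571 and 0.0537). It passed the low-count filter in iMEFs through the control group. *Col1a1* differed by 1.76 and the type VI chains by 1.45 to 1.66. *Col18a1* was the member with a difference below 0 (-1.09, adjusted p = 4.19e-04). It rose in iMEFs and had a log2 fold change of -0.07 in livers. *Col5a2* (0.45, adjusted p = 0.214), *Col7a1*, *Col8a1*, *Col11a2* and *Col20a1* were not called. The computed 95% interval of *Col7a1*, from -3.30 to 3.47, is unreliable, because its difference (0.08) and its F statistic were both near 0. Without senescent iMEF replicate 3 the difference of *Col5a2* was 0.65 (adjusted p = 0.0488).

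Of the 44 members, 9 were tested in neither tissue, 8 in iMEFs only and 6 in livers only. The 9 were *Col6a4*, *Col6a5*, *Col6a6*, *Col9a1*, *Col17a1*, *Col19a1*, *Col22a1*, *Col25a1* and *Col26a1*. *Col19a1* had 0 reads in all 14 libraries, *Col9a1* and *Col26a1* had at most 2 reads over any group, and *Col25a1* and *Col6a4* had the most, up to 45 reads over a group of libraries. The 8 tested in iMEFs only, *Col2a1*, *Col4a6*, *Col8a2*, *Col9a2*, *Col9a3*, *Col10a1*, *Col11a1* and *Col28a1*, had at most 40 reads over a liver group. The 6 tested in livers only, *Col4a3*, *Col4a4*, *Col13a1*, *Col14a1*, *Col23a1* and *Col24a1*, had at most 28 reads over an iMEF group.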

How the data were processed

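RNA-seq of 6 iMEF and 8 liver libraries was analysed from raw read counts per gene. The authors aligned reads to mm10 with STAR and deposited featureCounts counts in 1 table per tissue, and their DESeq2-normalized tables were not used. Versions and strand setting were not given in the sources used here. Reads in genes were 15364450 to 20177401 per library, which bounds the precision of low genes. Groups came from the labels. The study describes the samples of both tissues as biological replicates. Whether the iMEF libraries came from separate cultures was not stated, so their p-values measure the spread between these samples, which may be technical.

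Genes were filtered with filterByExpr, scaled by TMM and tested per tissue in edgeR 4.0.16 (R 4.3.3) with the quasi-likelihood test, Benjamini-Hochberg adjusted over all genes tested (threshold 0.05, prior count 2, 95% intervals). The 95% intervals were computed from the log2 fold change and the F statistic of this test, and are unreliable where both are near 0. The tissue difference was the interaction over 14 libraries, for genes passing the filter in each tissue. Chain ratios were log2 ratios of CPM with an offset of 0.5, compared by exact two-sided permutation tests with Python 3.11.15 and scipy 1.17.1. Exon lengths were the joined exons of all transcripts of a gene in GENCODE M21, and upstream windows came from RefSeq, both GRCm38. Scripts were tested on simulated data. Alternatives were DESeq2 1.42.0, RLE factors, TMM factors without collagen genes, no filter, a replicate block and leaving out each library.

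The members and the pathway and marker lists were chosen with earlier results of these data known. Every member is accounted for. Library values are given for members called with a group mean of at least 5 CPM and for the 3 highest per length in control libraries, and from each pathway list up to 3 called genes with the smallest p and up to 2 in the other direction.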

Additional observations from a re-analysis of the deposited data

Results flagged for a closer look

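In livers 2 values lay far from the rest of their group of 4. *Col18a1* was lowest in control replicate 1, at 1187 CPM with the other controls at 1298 to 1316 CPM, and *Col6a1* was highest in control replicate 2, at 17.5 CPM with the others at 9.31 to 10.5 CPM. Chance gives such a gap in about 1 of 20 groups, and 54 groups were examined. Control replicate 2 also had the highest summed myofibroblast markers, and their part in its collagen levels was not tested.

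The change in livers differed from that in iMEFs for 16 members by the interaction test in edgeR. The log2 fold change in livers minus that in iMEFs was 1.76 for *Col1a1*, 2.02 for *Col1a2*, 2.81 for *Col3a1*, 1.27 for *Col5a1*, 2.87 for *Col5a3* and 1.69 for *Col27a1*, the fibrillar chains. It was 1.12 for *Col4a1*, 1.0 for *Col4a2* and 1.29 for *Col4a5*, the type IV chains, and 1.66, 1.45 and 1.49 for *Col6a1*, *Col6a2* and *Col6a3*. Among fibril-associated chains it was 1.66 for *Col12a1* and 1.22 for *Col16a1*. For the multiplexins *Col15a1* and *Col18a1* it was 2.04 and -1.09. *Col15a1* passed the low-count filter in iMEFs through the control group, so its difference supports nothing beyond these values.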

How the results depend on the processing

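The counts of called collagen genes stayed within 1.5 times of the values reported under every alternative run. In iMEFs 20 members were lower with DESeq2, RLE factors or TMM factors without collagen genes and 23 without the filter, and 2 rather than 3 were higher with DESeq2 or without the filter. Leaving out 1 library gave 20 to 23 lower and 2 to 3 higher in iMEFs, 0 in livers and 15 to 17 tissue differences. With the replicate number as a block, 20 members were lower and 2 higher in iMEFs, 0 were called in livers and 16 differed between tissues, *Col9a3* lost its call in iMEFs (log2 fold change 1.03, adjusted p = 0.0645), and the block turned the liver log2 fold changes of *Col1a2* (0.00), *Col27a1* (-0.01) and *Col3a1* (0.00). Same-numbered libraries did not deviate together (r of -0.171 to -0.005 in iMEFs and -0.083 to 0.237 in livers), so the numbers were not taken as pairs.

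Some values that did not pass with all libraries turned in sign when 1 library was left out. In iMEFs their ranges were -0.43 to 0.19 for *Col11a2*, -0.06 to 0.74 for *Col4a6* and -0.25 to 0.01 for *Col8a1*. In livers they were -0.49 to 0.30 for *Col1a1*, -0.18 to 0.22 for *Col1a2*, -0.22 to 0.24 for *Col3a1*, -0.11 to 0.01 for *Col5a1*, -0.04 to 0.40 for *Col5a3*, -0.18 to 0.17 for *Col27a1*, -0.06 to 0.10 for *Col4a1*, -0.02 to 0.16 for *Col4a2*, -0.17 to 0.35 for *Col4a3*, -0.08 to 0.08 for *Col4a5*, -0.23 to 0.20 for *Col6a1*, -0.42 to 0.01 for *Col6a3*, -0.10 to 0.34 for *Col15a1*, -0.06 to 0.16 for *Col16a1*, -0.08 to 0.13 for *Col20a1* and -0.53 to 0.05 for *Col23a1*. The tissue difference of *Col7a1* ranged from -0.16 to 0.59. Chain ratio shifts ranged from -0.11 to 0.04 for *Col6a3* to *Col6a1* in iMEFs, and in livers from -0.08 to 0.38 for *Col1a2* to *Col1a1*, -0.05 to 0.29 for *Col3a1* to *Col1a1*, -0.03 to 0.11 for *Col4a2* to *Col4a1*, -0.19 to 0.03 for *Col5a2* to *Col5a1* and -0.11 to 0.42 for *Col15a1* to *Col18a1*.

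Without the filter *Col2a1* (log2 fold change -0.37, adjusted p = 0.0436) and *Col7a1* (-0.61, adjusted p = 3.45e-05) passed in iMEFs in edgeR, and the cause was not tested. With the filter *Col7a1* had nearly the same log2 fold change, -0.59, and an adjusted p of 0.0987 from edgeR. *Col6a4*, which the filter had left out and which is named after its values were seen, passed too (-1.6, adjusted p = 0.0073), on 45 control and 10 senescent reads. The 9 members tested in neither tissue had at most 45 reads over a group. All genes called in livers numbered 49 with edgeR and 139 with DESeq2.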
